A study of Mus musculus with 12 samples.

Results

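Chst1, Chst2, Ndst1 and B3gnt3 encode 4 Golgi enzymes that build or sulfate the glycans of the endothelial surface, and their RNA was followed in CD31+ cells of mouse lung. They are the sulfotransferases, together with the single N-acetylglucosaminyltransferase, of the glycosaminoglycan genes that the study singled out as changing alike after loss of TET2 and on a high-fat diet (HFD). They are 4 of the 9338 genes listed in any of the 4 deposited comparison tables. The study asked what the loss of TET2, a DNA demethylase, does to endothelial transcription and how far this resembles the effect of diet-induced diabetes. RNA was sequenced from 12 male C57Bl/6J mice, 3 in each of 4 groups.

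All mice carried the floxed gene (TET2fl/fl) and all received tamoxifen at 40 mg/kg on 3 days when aged 6 to 8 weeks. WT mice lacked the recombinase, while TET2 KO mice carried Cdh5-CreERT2, which cuts the floxed gene in cells that use the endothelial Cdh5 promoter. After tamoxifen, mice of either genotype were fed for 20 weeks on chow with 13% or on HFD with 60% of its energy from fat. The groups are thus WT chow, TET2 KO chow, WT HFD and TET2 KO HFD. Lung was digested and cells were taken with magnetic beads against CD31, a surface protein of endothelial cells that leukocytes and platelets also carry, so the preparations are enriched and not pure. Tet2 itself is listed only in the table of HFD against chow in WT mice, at 5.02 ± 0.25 FPKM (SD, n = 3) in WT chow and 6.37 ± 0.32 FPKM (n = 3) in WT HFD, and its level in TET2 KO mice was not analysed here. FPKM scales the fragments of a gene to transcript length and to the library's total, so that levels can be compared between genes.

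Heparan sulfate is a long sugar chain on core proteins such as perlecan, agrin, syndecans and glypicans. Ndst1 starts its modification by replacing acetyl groups of glucosamine with sulfate, which creates the sites on which later sulfotransferases act and which chemokines and growth factors bind. Selectin ligands are shorter chains on mucin-like proteins such as Cd34 and podocalyxin. B3gnt3 lengthens core 1 O-glycans with N-acetylglucosamine, Chst2 adds sulfate to carbon 6 of N-acetylglucosamine and Chst1 adds it to carbon 6 of galactose. Sialyltransferases and fucosyltransferases then complete the sulfated sialyl Lewis x cap that L-selectin of lymphocytes recognises on high endothelial venules.

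The genes lie on 4 chromosomes of the mouse genome, build mm10 (GRCm38). Chst1 (ENSMUSG00000027221) spans chr2:92599707-92615250 on the plus strand with 3 exons, of which 1 is coding. Chst2 (ENSMUSG00000033350) spans chr9:95399292-95406722 on the minus strand with 2 exons, of which 1 is coding. B3gnt3 (ENSMUSG00000031803) spans chr8:71690756-71701789 on the minus strand with 3 exons, of which 2 are coding. Within the deposited spans, no annotated gene other than the processed pseudogene Gm45756 overlaps a member. Gm45756 lies on the opposite strand of B3gnt3 and touches 0 bases of its exons. The span of Ndst1 is wider in GENCODE M21 than the deposited one, and the remainder was not searched.

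Since TET2 acts on methylated cytosine next to guanine, the promoters of Chst1, Chst2 and B3gnt3 are shown as RefSeq gives them, from 250 bases before to 50 after its start of transcription, with every CG in capitals. Methylation was not measured in these mice. The windows are chr2:92600867-92601166 (plus strand) for Chst1, chr9:95407221-95407520 (minus strand) for Chst2 and chr8:71701751-71702050 (minus strand) for B3gnt3, all on GRCm38.p6.
Chst1: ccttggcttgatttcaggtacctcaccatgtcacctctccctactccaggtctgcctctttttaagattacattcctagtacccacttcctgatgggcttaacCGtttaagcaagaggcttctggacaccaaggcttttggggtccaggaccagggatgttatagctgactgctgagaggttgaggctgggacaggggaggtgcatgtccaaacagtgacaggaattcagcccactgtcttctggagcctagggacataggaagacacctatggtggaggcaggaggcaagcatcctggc
Chst2: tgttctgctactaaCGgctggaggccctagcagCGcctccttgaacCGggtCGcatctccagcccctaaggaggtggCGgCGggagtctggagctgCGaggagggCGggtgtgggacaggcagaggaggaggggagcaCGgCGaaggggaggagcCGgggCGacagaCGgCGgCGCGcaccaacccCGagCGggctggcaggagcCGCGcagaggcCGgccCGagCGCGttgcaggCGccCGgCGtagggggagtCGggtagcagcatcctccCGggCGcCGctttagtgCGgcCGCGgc
B3gnt3: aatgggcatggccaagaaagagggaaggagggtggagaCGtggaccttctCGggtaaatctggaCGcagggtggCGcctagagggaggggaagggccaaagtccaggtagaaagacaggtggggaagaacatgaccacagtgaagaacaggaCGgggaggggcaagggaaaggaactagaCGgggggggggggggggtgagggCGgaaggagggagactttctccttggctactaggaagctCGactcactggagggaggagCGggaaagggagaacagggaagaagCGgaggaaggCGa

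The 3 windows differ widely in CG content. That of Chst1 holds 1 CG, and 5.43% of the 32851 RefSeq promoters hold fewer. That of Chst2 holds 34, more than 92.3% of promoters, and that of B3gnt3 holds 11, more than 58.6%, against a median of 7. The RefSeq start of Chst1 lies 1410 bases downstream of the GENCODE start, that of Chst2 548 bases and that of B3gnt3 11 bases upstream, so the window of Chst1 falls inside the annotated gene. Of the letter patterns searched on both strands, TTCNNNGAA (interferon gamma activated site, in 8.30% of promoters), GAAANNGAA (core of the interferon stimulated response element, in 8.56%) and TATAAA (in 13.6%) are in none of the 3 windows, while GGGCGG (GC box, in 35.7%) occurs 1 time each in those of Chst2 and B3gnt3.

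Ndst1 (ENSMUSG00000054008), the remaining member, spans chr18:60685978-60713389 on the minus strand in the tables, and its longest coding transcript in GENCODE M21 has 14 exons.

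Between 36.7 and 56.8 M (mega) reads per library fell on genes, the median being 39.6 M, and WT HFD replicate 1 was the deepest. A gene is in a table only if the authors' own test gave it an unadjusted p under 0.05. Values in a group therefore exist only where a comparison with that group listed the gene. Chst1, Chst2 and Ndst1 have values in the 9 libraries of WT chow, TET2 KO chow and WT HFD. They are in neither table with TET2 KO HFD, where their levels were not analysed here. B3gnt3 has values in all 12 libraries. Reads per library ran from 239 for Chst2 in a WT chow mouse to 6878 for Ndst1 in a WT HFD mouse. The part of counting error in the spread between mice was not tested. The preparations also held other cells. The club cell secretoglobin Scgb1a1 reached 5481 FPKM in WT chow and the myeloid lysozyme Lyz2 5381 FPKM in TET2 KO chow, against at most 118 FPKM for the endothelial cadherin Cdh5 in WT chow.

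Ndst1 had the highest level of the 4 and Chst2 the lowest, and both were lowest in WT chow. Ndst1 stood at 15.4, 11.5 and 14.5 FPKM in WT chow, at 20.4, 17.5 and 16.5 FPKM in TET2 KO chow and at 20.0, 19.3 and 18.1 FPKM in WT HFD, replicates 1 to 3 in this order. No TET2 KO chow or WT HFD mouse fell to the level of a WT chow mouse. Chst2 stood at 0.744, 0.914 and 1.19 FPKM in WT chow, at 1.36, 1.43 and 1.32 FPKM in TET2 KO chow and at 1.75, 1.30 and 1.44 FPKM in WT HFD. Its WT chow mice also lay below all others.

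Chst1 stood at 4.41, 3.90 and 8.53 FPKM in WT chow, at 8.23, 8.92 and 8.89 FPKM in TET2 KO chow and at 10.3, 7.60 and 8.25 FPKM in WT HFD. The WT chow group was split. Replicate 3 lay within the range of both other groups, and replicates 1 and 2 lay below every other mouse. That same WT chow replicate 3 was the highest of its group in Chst2 and B3gnt3, and in the summed FPKM of 13 endothelial markers, with 911 against 382 and 334 in replicates 1 and 2.

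B3gnt3 stood at 3.78, 4.43 and 6.14 FPKM in WT chow, at 13.5, 6.80 and 4.53 FPKM in TET2 KO chow, at 12.7, 10.4 and 8.28 FPKM in WT HFD and at 5.98, 4.79 and 4.06 FPKM in TET2 KO HFD. WT HFD was the high group and overlapped neither WT chow nor TET2 KO HFD, whose ranges lay over each other. TET2 KO chow spread over the whole range, from a mouse at the level of WT chow to the highest value of the 12.

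**Figure D1:**
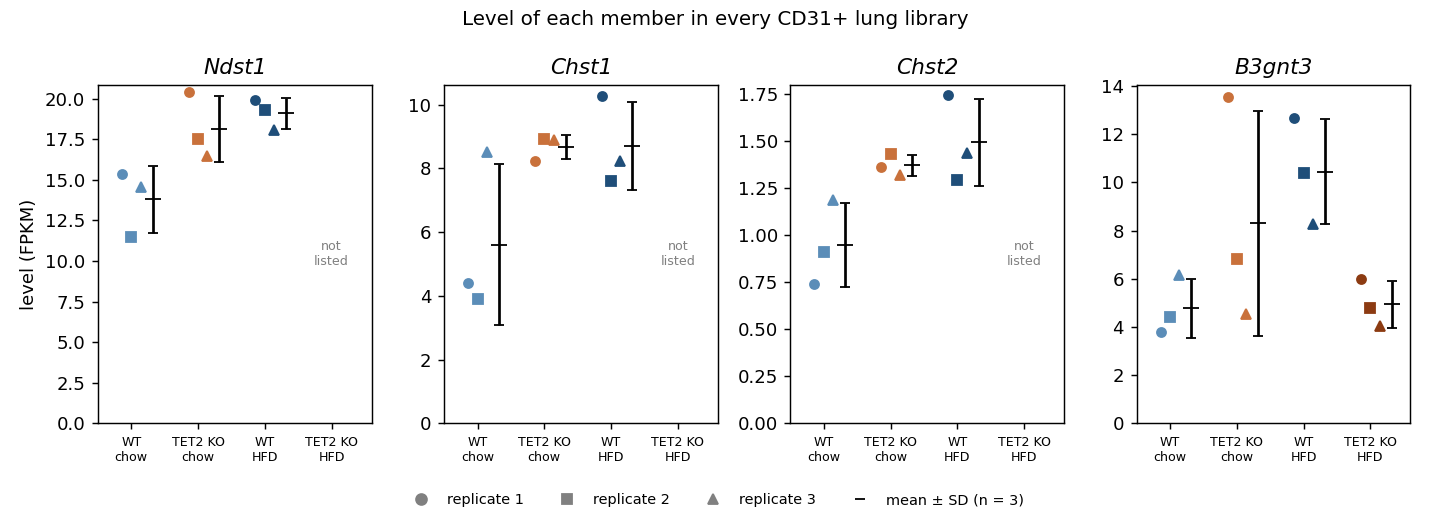
Level in FPKM (linear axes starting at 0) of Ndst1, Chst1, Chst2 and B3gnt3 in each library, by group, with the mean and SD of 3 mice in black. Ndst1, Chst1 and Chst2 have no values for TET2 KO HFD. The 3 WT chow mice are lowest in Ndst1 and Chst2, WT chow replicate 3 stands with the other groups in Chst1, and B3gnt3 is high in WT HFD and in TET2 KO chow replicate 1.

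By group mean, Ndst1 came to 13.8 ± 2.05 FPKM (SD, n = 3) in WT chow, 18.1 ± 2.04 in TET2 KO chow and 19.1 ± 0.96 in WT HFD. Chst1 came to 5.61 ± 2.54, 8.68 ± 0.39 and 8.71 ± 1.39 FPKM, and Chst2 to 0.948 ± 0.223, 1.37 ± 0.06 and 1.49 ± 0.23 FPKM, in the same order. B3gnt3 came to 4.78 ± 1.22 FPKM in WT chow, 8.29 ± 4.68 in TET2 KO chow, 10.4 ± 2.19 in WT HFD and 4.94 ± 0.97 in TET2 KO HFD. In all 4 genes WT HFD had the highest mean, TET2 KO chow followed, and the difference between these neighbours was within their spread. Between genes, Ndst1 came first and Chst2 last in each of these 3 groups without overlap, and the ranges of Chst1 and B3gnt3 overlapped in each.

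TET2 KO chow was compared with WT chow to see what loss of TET2 does without a change of diet. All 4 genes were higher in TET2 KO chow, by 1.31- to 1.74-fold in edgeR's fit, and only Chst2 passed an unadjusted p of 0.05. Chst2 was 1.45-fold higher, a log2 fold change of 0.53 ± 0.20 (SE, n = 3 per group, edgeR quasi-likelihood test). Ndst1 had a log2 fold change of 0.39 ± 0.17, Chst1 of 0.63 ± 0.29 and B3gnt3 of 0.80 ± 0.40, and none of these passed. After Benjamini-Hochberg adjustment over the 18463 genes that the authors adjusted, edgeR gave all 4 an adjusted p of 1, and 0 of the 1298 listed genes passed 0.05 (12 with DESeq2, no member among them). At the unadjusted p, edgeR called 994 of these 1298, so the call of 1 of 4 members stands beside a background of 76.6%, or 30.6% called as higher. Groups did not overlap for 2 of 4 members, Chst2 and Ndst1, against 74.7% of the listed genes. The study chose the 4 genes from this table and the next for moving the same way, so their common direction here is no independent evidence.

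These values depended on single mice. The call of Chst2 was lost in 5 of the 6 fits that left out 1 library, with log2 fold changes between 0.39 and 0.72, and was kept without WT chow replicate 3. Without that same mouse Chst1 passed the unadjusted threshold with 1.05. B3gnt3 had 0.24 without TET2 KO chow replicate 1, and passed with 1.09 without TET2 KO chow replicate 3. It also passed the unadjusted threshold in the fit of all 12 libraries described further on, which pools the spread of the 4 groups (0.79 ± 0.36, edgeR adjusted p = 0.169 over 975 genes). In the fit of 9 libraries, also described further on, Ndst1 and Chst2 passed the unadjusted threshold on chow, and Chst1 and B3gnt3 did not. Chst1 missed it narrowly, with an unadjusted p of 0.05004 (edgeR). The edgeR adjusted p-values of the 4 genes ran from 0.0964 to 0.112 over 1407 genes. The share of those genes that passed is not given here. In the fit of TET2 KO chow against WT chow without WT chow replicate 1, Ndst1 passed with 0.49.

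Markers of several cell types differed between the same mice. Of 13 endothelial markers Ramp2 (1.18 ± 0.54) and Calcrl (0.84 ± 0.46) were listed, and neither was called, while the capillary marker Ednrb (0.45) was called higher. The natural killer cell genes Prf1 (0.81) and Nkg7 (0.74) and the monocyte gene Ccr2 (1.01) were called higher. Of 5 listed T cell markers 4 were called higher, with log2 fold changes from 0.54 to 0.79. The club cell genes Scgb3a2 (-1.29) and Scgb1a1 (-0.90), 4 fibroblast genes (-1.20 to -0.89) and 3 mesothelial genes (-2.33 to -1.88) were called lower. Their part in the values of the 4 members was not tested.

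**Figure D2:**
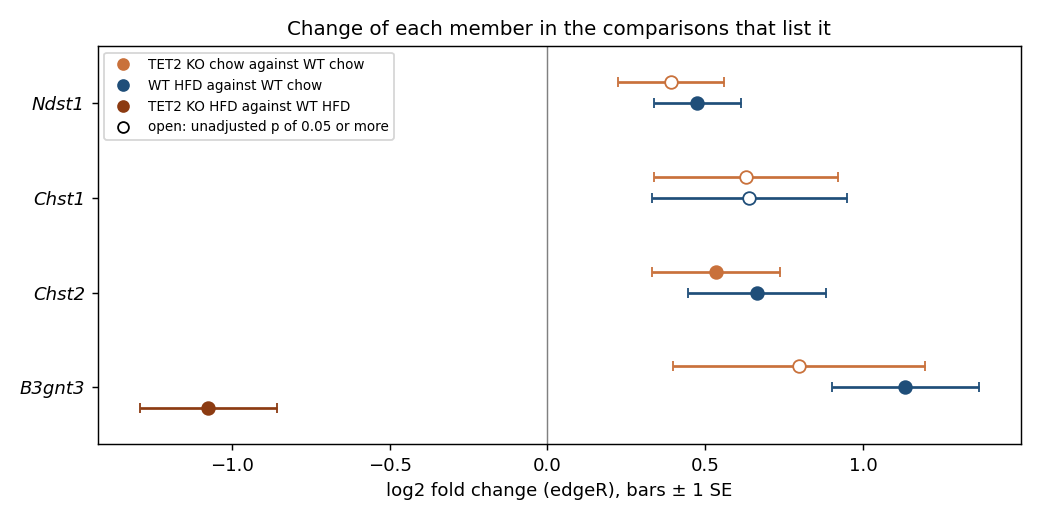
Log2 fold change of each gene (horizontal axis, points with bars of 1 SE, edgeR, 3 mice per group) in the comparisons that list it, filled where the unadjusted p was under 0.05. Only Chst2 is filled for TET2 KO chow against WT chow, Chst1 is the only open point for WT HFD against WT chow, and B3gnt3 lies near 1.13 for diet in WT mice and near -1.07 for TET2 KO against WT on HFD.

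WT HFD was compared with WT chow as the model of diabetes. All 4 genes were again higher, and B3gnt3, Chst2 and Ndst1 passed the unadjusted threshold. B3gnt3 was 2.19-fold higher (log2 fold change 1.13 ± 0.23, edgeR adjusted p = 0.0435) and was the only member below an adjusted p of 0.05, as were 18.6% of the listed genes. Over all annotated genes instead of the 23768 that the authors adjusted, its adjusted p was 0.101. Chst2 was 1.58-fold higher (0.66 ± 0.22, edgeR adjusted p = 0.105) and Ndst1 1.39-fold (0.47 ± 0.14, edgeR adjusted p = 0.0790). Chst1 had a log2 fold change of 0.64 ± 0.31 (edgeR adjusted p = 0.257). DESeq2 put Ndst1 (adjusted p = 0.0250) and Chst2 (adjusted p = 0.0412) under 0.05 as well, and not Chst1 (adjusted p = 0.221). The 3 calls of 4 and the same 3 genes without overlap stand beside backgrounds of 91.6% and 86.5% of the 7330 listed genes, of which 42.4% were called as higher, in a table the study chose the members from.

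The calls of B3gnt3 and Ndst1 were kept in each of the 6 fits without 1 library, at 0.97 to 1.36 for B3gnt3 and 0.36 to 0.56 for Ndst1. Chst2 kept its call in 3 of 6 and lost it without WT chow replicate 1 (0.51), WT chow replicate 2 (0.64) or WT HFD replicate 1 (0.53). Chst1 passed with 1.08 without WT chow replicate 3.

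Endothelial markers were also higher in WT HFD. All 13 markers fixed for endothelial cells were listed and higher in WT HFD, 12 with an unadjusted p under 0.05, with a median log2 fold change of 1.47 and a range from 0.86 to 1.75, while the median of all listed genes was -0.32. Cdh5, the endothelial cadherin, had a log2 fold change of 1.58 ± 0.40 and Pecam1, which encodes CD31, of 1.19 ± 0.33, and both were called. The 13 markers summed to 334, 382 and 911 FPKM in WT chow and to 988, 1416 and 1768 FPKM in WT HFD, sorted from lowest to highest, with no overlap. Whether a preparation held more endothelial cells, or each such cell more of these RNAs, cannot be told apart in bulk RNA.

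With library sizes set by that marker sum, a choice made after the data were seen, all 4 members turned to lower values in WT HFD. Ndst1 then had a log2 fold change of -1.07 ± 0.53, which passed an unadjusted p of 0.05, while Chst2 (-0.83 ± 0.53), Chst1 (-0.74 ± 0.51) and B3gnt3 (-0.38 ± 0.51) did not. With this scaling 4912 of the 7330 listed genes were called. The scaling moved the median of all listed genes by -1.57, and the share of higher genes among those called from 46.3% to 0.814%. A shift of this size turns any gene with a smaller rise to a lower value. Per 1000 FPKM of summed markers, B3gnt3 came to 9.96 ± 3.25 FPKM (SD, n = 3) in WT chow and 7.63 ± 0.66 in WT HFD, with overlapping mice. Ndst1 came to 30.2 ± 12.7 and 14.4 ± 3.56 FPKM and Chst2 to 1.99 ± 0.72 and 1.12 ± 0.29 FPKM, both with overlapping mice. Chst1 came to 10.9 ± 1.30 and 6.51 ± 1.61 FPKM, without overlap. The share of all listed genes without overlap on this scale is not given here.

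Markers of other cells moved too. The 5 natural killer cell genes were all called higher, with log2 fold changes from 1.39 to 2.45, and so were the T cell genes Lck (0.63) and Cd8a (0.42) and the monocyte genes Ccr2 (1.38), Csf1r (1.21) and Ly6c2 (0.87), while the macrophage gene Mrc1 (-1.05) was called lower. The alveolar type 1 genes Ager (1.34) and Hopx (1.18) were called higher, and Epcam (-0.70) and Scgb3a2 (-0.64) lower. Their part in the values of the members was not tested. Of 6 markers of venous and high endothelial cells, Vwf (1.16) and Nr2f2 (1.06) were listed and called higher. No B cell or neutrophil marker of the fixed lists was listed in any table.

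TET2 KO HFD was compared with WT HFD to ask what loss of TET2 does in mice on HFD. Of the 4 members only B3gnt3 was listed. Its level fell from 12.7, 10.4 and 8.28 FPKM in WT HFD to 5.98, 4.79 and 4.06 FPKM in TET2 KO HFD, with no overlap. The log2 fold change was -1.07 ± 0.22, or 0.475 of the WT HFD level, and it stayed between -1.24 and -0.91 and past the threshold in all 6 fits without 1 library. After adjustment over 18703 genes the edgeR adjusted p = 0.261, a value shared by 901 genes of this table as its lowest, and 0 of 3939 listed genes passed an adjusted 0.05. DESeq2 passed 570 of them, with an adjusted p = 0.00472 for B3gnt3, and limma-trend 0. At the unadjusted threshold 82.3% of the listed genes were called, 39.1% as lower, and the groups did not overlap in 74.7%. This table had no part in the choice of the members, but it shares its WT HFD mice with the table of diet in WT mice, where B3gnt3 was high.

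The endothelial markers fell along with B3gnt3. Of the 13 markers 11 were listed, all lower in TET2 KO HFD and 9 called, with a median log2 fold change of -1.02. Their sum was 954, 1363 and 1709 FPKM in WT HFD and 511, 543 and 939 FPKM in TET2 KO HFD. Scaled to these 11 markers, B3gnt3 differed between TET2 KO HFD and WT HFD by -0.031 ± 0.31, which did not pass, while the median of all listed genes moved by 1.03 and the share of higher genes among those called from 52.4% to 99.1%. Per 1000 FPKM of the 11 markers, B3gnt3 came to 10.5 ± 3.49 FPKM in WT chow, 7.90 ± 0.68 in WT HFD and 7.74 ± 1.52 in TET2 KO HFD (SD, n = 3 each), and the last pair overlapped. Among other markers, Ager (-1.06), Hopx (-0.73) and Ccr2 (-1.05) were called lower, and their part in the value of B3gnt3 was not tested.

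The table of HFD against chow in TET2 KO mice lists 0 of the 4 genes. In a fit of all 12 libraries over the 975 genes with values in each, B3gnt3 was lower in TET2 KO HFD than in TET2 KO chow by -0.75 ± 0.36 on the log2 scale (edgeR adjusted p = 0.103). It differed by 0.05 ± 0.36 (edgeR adjusted p = 0.938) between TET2 KO HFD and WT chow. The other 3 genes had no values for TET2 KO HFD.

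The estimated effect of diet on B3gnt3 thus had a different sign in each genotype, though it passed the threshold only in WT mice, and the difference itself was tested. The genotype by diet interaction was -1.87 ± 0.51 on the log2 scale (edgeR adjusted p = 0.0154 over 975 genes). Without any 1 of the 12 libraries it lay between -2.17 and -1.33, and passed an unadjusted 0.05 in all 12 fits, the smallest size being that without TET2 KO chow replicate 1. The interaction was called for 56.4% of the 975 genes at the unadjusted p, as lower for 28.6%, and for 55.4% at an adjusted p under 0.05. A gene enters this fit only if the tables list it for all groups. The fit also shares the WT chow, TET2 KO chow and WT HFD mice from which the member was chosen. Since B3gnt3 was higher in TET2 KO chow and WT HFD than in WT chow, that choice pushes the interaction below 0 in advance. Its listing as lower in TET2 KO HFD than in WT HFD, without which it had no values there, pushes the same way.

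Calcrl, the receptor of adrenomedullin on endothelial cells, and its partner Ramp2 are 2 of the 3 endothelial markers with values in all 12 libraries. In each of the 4 groups the 3 mice had the same order in B3gnt3, in Calcrl and in Ramp2. TET2 KO chow replicate 1, the highest of all in B3gnt3, had 152 FPKM of Calcrl and 92.7 FPKM of Ramp2, against 67.0 and 49.8 FPKM of Calcrl in replicates 2 and 3. Per 1000 FPKM of Calcrl, B3gnt3 came to 99.7 ± 15.8 FPKM in WT chow, 93.9 ± 6.63 in TET2 KO chow, 78.0 ± 12.8 in WT HFD and 81.0 ± 19.5 in TET2 KO HFD (SD, n = 3 each). All 4 groups overlapped on this scale, which was chosen after the values were seen and rests on 1 of the 3 genes most like B3gnt3, so that the overlap is no independent result.

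The third such marker, Emcn (endomucin), did not follow B3gnt3 in this way. Its level was 2.37 ± 0.27 FPKM in WT chow, 2.41 ± 0.39 in TET2 KO chow, 7.94 ± 2.21 in WT HFD and 4.75 ± 2.17 in TET2 KO HFD (SD, n = 3 each), so that the chow groups lay over each other. The order of the mice in Emcn and B3gnt3 was the same in 2 of 4 groups. Divided by Emcn, B3gnt3 came to 1.99 ± 0.28 in WT chow, 3.33 ± 1.51 in TET2 KO chow, 1.35 ± 0.23 in WT HFD and 1.12 ± 0.28 in TET2 KO HFD. On that scale, also chosen after the values were seen, both HFD groups lay below WT chow and overlapped each other. TET2 KO chow ran from 2.32 to 5.07, its lowest mouse barely above the highest WT chow mouse at 2.30. The share of all genes without overlap on this scale is not given here.

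**Figure D3:**
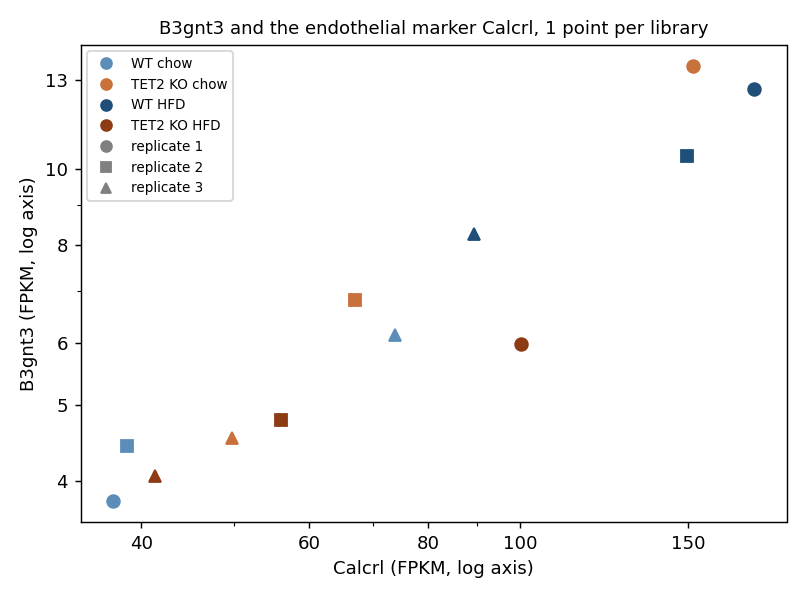
B3gnt3 against the endothelial marker Calcrl, both in FPKM on log axes, 1 point per library, colour for the group and shape for the replicate. The 12 points run along a rising band from WT chow replicate 1 (37.3 FPKM of Calcrl, 3.78 FPKM of B3gnt3) to WT HFD replicate 1 (176 and 12.7 FPKM), and TET2 KO chow replicate 1 stands with the WT HFD mice.

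The sulfotransferases shared this order in fewer groups. Chst1 matched the order of Calcrl in 0 of 3 groups, Chst2 in 1 and Ndst1 in 2. Over 9 libraries r with Calcrl, as defined in the next paragraph, was 0.823 for Ndst1, 0.766 for Chst2 and 0.683 for Chst1. Per 1000 FPKM of Calcrl, Ndst1 came to 302 ± 108 FPKM in WT chow, 242 ± 99.3 in TET2 KO chow and 148 ± 47.4 in WT HFD, and Chst1 to 112 ± 9.19, 122 ± 62.8 and 67.1 ± 22.1 FPKM. In TET2 KO chow the 3 mice were within 1.08-fold of each other in Chst1 and in Chst2, within 1.24-fold in Ndst1, and spread 2.99-fold in B3gnt3.

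The genes most like each member were sought by Pearson's r of log2(FPKM + 0.1), over the libraries with a value and among listed genes with a mean of at least 1 FPKM. The points share groups and libraries, and r is given as a description. For B3gnt3, over 12 libraries and 703 genes, they were Rassf9 (r = 0.969), Btbd3 (0.955) and Calcrl (0.955), and 43 genes exceeded 0.9. For Chst1, over 9 libraries and 952 genes, they were Igfbp7 (0.974), an insulin-like growth factor binding protein, the homeobox gene Meox1 (0.961) and Enho (0.942), which encodes adropin. For Chst2 they were Parp10 (0.967), Enho (0.966) and Nr2c1 (0.956), and for Ndst1 Elp3 (0.963), Pla2g12a (0.958) and the sialyltransferase gene St3gal1 (0.950). Between members, r was 0.915 for Chst1 with Chst2, 0.738 for Chst1 with Ndst1 and 0.637 for Chst1 with B3gnt3.

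TET2 KO chow and WT HFD, each compared with the same WT chow mice above, were also set against each other in a fit of the 9 libraries without TET2 KO HFD, added after the data were seen. The log2 differences of WT HFD over TET2 KO chow were 0.01 ± 0.28 for Chst1, 0.08 ± 0.16 for Ndst1, 0.12 ± 0.20 for Chst2 and 0.33 ± 0.37 for B3gnt3 (SE), with edgeR adjusted p-values from 0.560 to 0.994 over 1407 genes. None passed, which does not show that the groups were alike. Against WT chow in the same fit, WT HFD passed an unadjusted 0.05 for all 4 genes. The edgeR adjusted p-values over the 1407 genes were 0.0192 for Chst2, 0.0233 for B3gnt3, 0.0260 for Ndst1 and 0.0543 for Chst1. Only genes listed in comparisons that cover these groups are among the 1407, and the members were chosen from these same mice. Passing is therefore no independent evidence, and how many of the 1407 genes passed is not given here. Over the 23768 genes that the authors adjusted, the edgeR adjusted p was 0.105 for Chst2 and 0.0790 for Ndst1.

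The lists fixed for this pathway held 99 further gene symbols, which act before, beside or after the 4 members. In TET2 KO chow against WT chow 4 of them were listed, and 3 were called. The sialyltransferases St3gal6 (0.52 ± 0.19) and St3gal4 (0.40 ± 0.14), which add the sialic acid of selectin ligands, were higher. The glypican Gpc3 was lower (-1.63 ± 0.40). Podxl, which encodes podocalyxin, had 0.91 ± 0.42 and was not called. No gene of heparan sulfate chain building, of the sulfate donor supply or of the other carbohydrate sulfotransferases was listed. St3gal4 and St3gal6 were chosen by the study in the same way as the members.

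In WT HFD against WT chow 40 of the 99 were listed, 24 were called higher and 7 lower, with a median log2 fold change of 0.52 against -0.32 over all listed genes and a background of 42.4% called higher. Scaled to the endothelial markers, which moved the median of all listed genes by -1.57, 3 of the 24 stayed above 0. These were Chst7, Podxl and Emcn, itself 1 of the markers. With that scaling 0 of the 40 were called higher and 19 lower. Of the other steps towards selectin ligands, St3gal4 (1.09 ± 0.19) and St3gal6 (0.91 ± 0.22) were higher, and B4galt1 (-0.31 ± 0.10), which adds galactose, was lower. The carriers Podxl (1.92 ± 0.35), Emcn (1.75 ± 0.23) and Cd34 (1.01 ± 0.39) were higher. No selectin gene was listed.

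Among other sulfotransferases in WT HFD, Chst7 (1.79 ± 0.36), which sulfates chondroitin, Chst14 (0.83 ± 0.18), which sulfates dermatan, and Chst12 (0.69 ± 0.16) were higher, as was the tyrosine sulfotransferase Tpst2 (0.41 ± 0.14). Chst13, Chst3, Chst11 and Chst10, the other 4 of the 8 listed, were not called and ran from -1.06 to 0.74. Of 4 listed genes of sulfate donor supply, the donor synthase Papss2 (0.91 ± 0.29) and Impad1 (0.31 ± 0.10) were higher and Bpnt1 (-0.39 ± 0.10) was lower, with a list median of -0.039. In the same comparison B3gnt9 (-0.87 ± 0.24) and B3gnt7 (-0.39 ± 0.14), of the family of B3gnt3, were lower, and B3gntl1 (0.36 ± 0.16) was not called. B4gat1 (0.53 ± 0.15), in the same fixed list though it belongs to another enzyme family, was higher.

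Around Ndst1, 4 of the 5 listed genes that build the heparan sulfate chain were called higher in WT HFD, with Extl3 at 0.83 ± 0.12, Xylt2 at 0.51 ± 0.15, B3gat3 at 0.36 ± 0.11 and Ext2 at 0.33 ± 0.11. Among the enzymes that modify the chain, Hs6st2 (1.32 ± 0.52), Hs2st1 (0.38 ± 0.12) and Ndst2 (0.30 ± 0.11) were higher, while the epimerase Glce (-0.36 ± 0.11) and the sulfatase Sulf2 (-0.73 ± 0.29), which removes sulfate at the cell surface, were lower. Of 7 listed core proteins 5 were called higher, led by agrin (Agrn, 1.26 ± 0.26) and with perlecan (Hspg2) at 0.71 ± 0.20, and the syndecan Sdc4 was lower (-0.42 ± 0.13). The markers of endothelial cells had a higher median than each of these lists other than that of the carriers, whose median was 1.75 over 3 listed genes, Emcn among them as in the marker list.

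In TET2 KO HFD against WT HFD, which shares the WT HFD mice, 27 of the 99 were listed, 2 were called higher and 17 lower, with a median of -0.56 against 0.33 over all listed genes and a background of 39.1% called lower. Scaled to the endothelial markers, which moved the median of all listed genes by 1.03, 4 of the 17 stayed below 0. With that scaling 6 of the 27 were called higher and 0 lower. Beside B3gnt3, the fucosyltransferase Fut7 (-0.98 ± 0.27), St3gal4 (-0.69 ± 0.28) and St3gal6 (-0.56 ± 0.22) were called lower among genes of selectin ligands, as were Chst7 (-1.35 ± 0.35), Chst14 (-0.70 ± 0.22), Papss2 (-0.94 ± 0.32), Podxl (-1.09 ± 0.35) and Cd34 (-0.64 ± 0.25). Of the chain-building genes Ext1 (-0.44 ± 0.19), Extl3 (-0.42 ± 0.14) and Ext2 (-0.36 ± 0.14) were lower. Among the enzymes that modify the chain, Hs6st2 (-1.36 ± 0.53) and Hs2st1 (-0.35 ± 0.13) were called lower and Hs6st1 (0.49 ± 0.16) higher. Among the core proteins, Sdc3 (-1.01 ± 0.40) and Agrn (-0.75 ± 0.25) were called lower and Sdc4 (0.57 ± 0.17) higher.

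**Figure D4:**
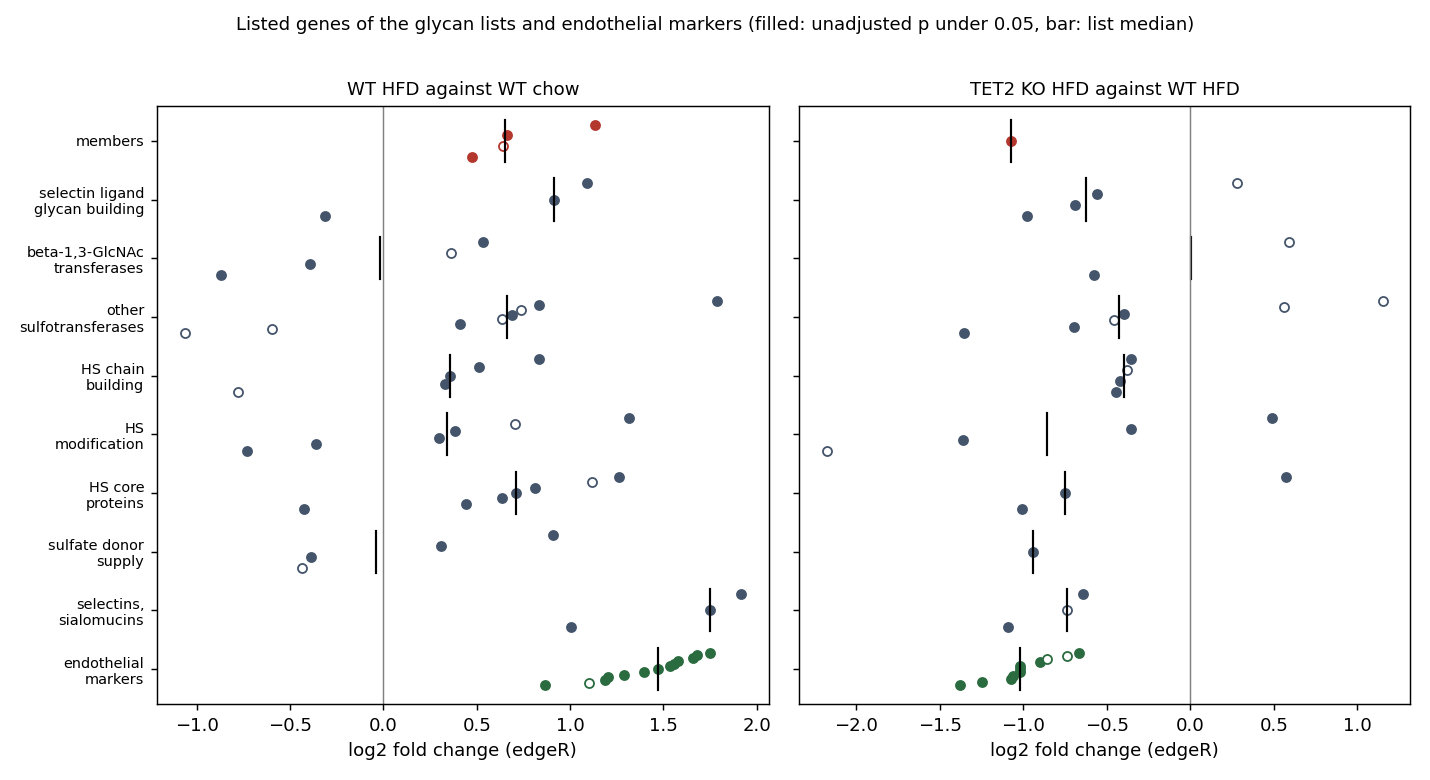
Log2 fold change (horizontal axes, edgeR, 3 mice per group) of the listed members (red), of other listed genes of the glycan lists (grey) and of endothelial markers (green), filled where the unadjusted p was under 0.05, with a bar at each median (HS, heparan sulfate). In WT HFD against WT chow the endothelial markers lie from 0.86 to 1.75 and the members from 0.47 to 1.13, and in TET2 KO HFD against WT HFD all 11 listed endothelial markers and B3gnt3 lie below 0.

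In TET2 KO HFD against TET2 KO chow 8 of the 99 were listed, all called, 5 higher and 3 lower, with a background of 77% called. Chst4, the sulfotransferase of high endothelial venules that acts on the same sugar as Chst2, had a log2 fold change of 1.77 ± 0.70 and Gpc3 of 2.05 ± 0.32. Fut7 (-0.87 ± 0.26), Sulf2 (-0.81 ± 0.28) and Hs3st3a1 (-2.59 ± 0.87) were lower. Counts of Chst4 were few, with normalized means of 6.09 in TET2 KO chow and 21.3 in TET2 KO HFD (edgeR adjusted p = 0.836). Those of Hs3st3a1 were 25.4 and 4.20 in the same order (edgeR adjusted p = 0.828). In this table edgeR's TMM factors moved the median of all listed genes by 0.25 and the share of higher genes among those called from 38.0% to 64.2%. The mesothelial markers Msln (2.43), Upk3b (2.04) and Muc16 (1.94) were called higher in the same mice, and in TET2 KO chow against WT chow they were called lower, as was Gpc3. The fibroblast genes Col3a1 (1.27) and Dcn (0.92) were likewise called higher here and lower there. Emcn (0.98) and Vcam1 (1.19), an adhesion molecule of venous endothelium, were called higher, and Mrc1 (-0.92), Trac (-0.74), Lyz2 (-0.71), Cd8a (-0.62) and Epcam (-0.60) lower. Their part in the values of Gpc3 was not tested.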

How the data were processed

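Poly(A) RNA of CD31+ lung cells from 12 mice was sequenced as paired-end reads. The authors aligned them to mm10 (HISAT2), counted reads on genes (featureCounts) and compared pairs of groups (DESeq2). Versions and the use of strand in counting are not given in the sources used here. The authors deposited 4 tables with raw read counts, a normalized signal (count over DESeq2 size factor) and FPKM for each library, beside gene length and position. The p-values and adjusted p-values that the authors deposited, made by DESeq2, served only to recover the number of genes in each adjustment, and their fold changes were not used. 0 columns of other samples were found. Only genes under an unadjusted p of 0.05 in that test are in a table, and all others are not analysed here.

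Library totals were recovered from count, length and FPKM. The quasi-likelihood test of edgeR 4.0.16 in R 4.3.3 was run, two-sided, on the counts of every listed gene of a table and the 2 groups compared, with the deposited size factors as scaling. Spread was thus estimated from genes that the authors' test had selected. A gene was called at an unadjusted p under 0.05, the study's criterion. Benjamini-Hochberg adjustment took the recovered number of genes, or all 55450 annotated ones. The interaction used the 975 genes with counts in all 12 libraries and recovered library totals. Groups and replicate numbers came from the sample titles, and replicates are separate mice, so p-values measure the spread between mice. With 3 against 3 an exact permutation test cannot go below 0.1, so none was run. Alternatives were DESeq2 1.42.0, library totals, TMM factors, a mean normalized count of 10 or more, limma-trend (limma 3.58.1) on log2(FPKM + 0.1) and log2(FPKM + 1), the replicate number as a block, and each library left out. Scaling to summed endothelial markers, the fit of 9 libraries and levels per Calcrl or Emcn were added after the data were seen. The fits were tested on simulated data.

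The members and the gene lists were chosen with earlier results of these data known. Genes named are the 4 members, the 3 genes most like each, and up to 6 listed genes of each list and comparison by size of change, where the normalized counts averaged 10 or more. Scgb1a1, Lyz2, Tet2, Calcrl and Emcn were singled out after their values were seen. Promoters came from RefSeq (GRCm38.p6), where 3 of 4 members are shown. No sequence of Ndst1 and no protein sequence is shown. Gene structure came from GENCODE M21. Python 3.11.15 with numpy 2.4.6, pandas 2.3.3 and matplotlib 3.10.9 was used for summaries and plots.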

Additional observations from a re-analysis of the deposited data

Results flagged for a closer look

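The estimated effect of HFD on B3gnt3 differed between genotypes. The study chose B3gnt3 as changing alike in TET2 KO chow and WT HFD, and it was higher in both than in WT chow. Such a choice pushes the interaction below 0 in advance. B3gnt3 also has values in TET2 KO HFD only because it was listed there as lower than in WT HFD, which pushes the same way. The adjusted p of the interaction is therefore no independent evidence. The genotype by diet interaction was -1.87 ± 0.51 on the log2 scale (edgeR adjusted p = 0.0154), and 55.4% of the 975 genes tested passed as well. B3gnt3 was higher on HFD in WT mice by 1.13 ± 0.36 in a fit of 12 libraries. In TET2 KO mice the log2 difference was -0.75 ± 0.36, which did not pass (edgeR adjusted p = 0.103), and the groups overlapped. The TET2 KO chow group held the widest spread of the 4, from 4.53 to 13.5 FPKM, and without its replicate 1 the interaction was -1.33 and still passed an unadjusted p of 0.05. With 3 mice per group no test for a single outlying mouse was made.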

How the results depend on the processing

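Each other test, scaling and filter chosen at the outset kept the direction of each member in each comparison that lists it. The calls of B3gnt3 and Ndst1 in WT HFD against WT chow and of B3gnt3 in TET2 KO HFD against WT HFD held under all of these, as did the interaction of B3gnt3, which lay between -2.17 and -1.33 with 1 library left out. In TET2 KO chow against WT chow, Chst1 passed the unadjusted threshold with TMM factors (log2 fold change 0.67), limma-trend with a pseudocount of 0.1 (0.71) or 1 (0.61) and the replicate block (0.71), and Ndst1 with library totals (0.39), TMM factors (0.41) and limma-trend (0.40 and 0.37). In WT HFD against WT chow Chst1 passed with TMM factors (0.66). The cause was not tested. Scaled to the endothelial markers, WT HFD against WT chow was reversed for Chst1 (-0.74), Chst2 (-0.83), Ndst1 (-1.07) and B3gnt3 (-0.38), B3gnt3 in TET2 KO HFD against WT HFD came to -0.031 and was not called, and that comparison called 2090 genes in place of 3241.

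With 1 library left out, in TET2 KO chow against WT chow Chst1 ranged from 0.42 to 1.05, Chst2 from 0.39 to 0.72, Ndst1 from 0.27 to 0.49 and B3gnt3 from 0.24 to 1.09. In WT HFD against WT chow Chst1 ranged from 0.43 to 1.08 and Chst2 from 0.51 to 0.86. Genes called ranged from 483 to 806 for TET2 KO chow against WT chow, where 994 were called with all mice, from 1490 to 2849 for TET2 KO HFD against WT HFD, and from 599 to 1062, in place of 1254, for TET2 KO HFD against TET2 KO chow. At an adjusted p under 0.05 edgeR called 0, 1363, 0 and 1 genes in the order of TET2 KO on chow, diet in WT, TET2 KO on HFD and diet in TET2 KO, against 994, 6712, 3241 and 1254 at the unadjusted p, and 0 in each with all annotated genes in the adjustment. DESeq2 called 12, 4544, 570 and 70 at the adjusted p in the same order, and limma-trend with a pseudocount of 0.1 called 0, 1798, 0 and 1.

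The sample titles give no pairing of mice by replicate number. The correlations below rest on deviations from means of 3 mice and cannot exclude a pairing. Correlations between mice of the same number ran from -0.165 to 0.237 over the 4 comparisons and not every pair exceeded 0.1, nor did every mouse correlate best with its own number. With the replicate block 811 genes were called for TET2 KO chow against WT chow, B3gnt3 had an interaction of -1.74, and of the members' calls only that of Chst1 on chow changed. The lowest count of a member in any library was 239 reads.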
